A study of Homo sapiens with 12 samples.

Results

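The proteins of the large subunit of the cytosolic ribosome were followed as 1 set of 46 genes, RPL3 to RPL41 with their A forms and the stalk proteins RPLP0, RPLP1 and RPLP2, out of 19580 genes in a table of ribosome footprints. The genes were taken by their Ensembl identifiers, from a list of names and not from measured values, and all 46 were in the table. The table carries identifiers only, so the symbols are those of the list in its stated order. RefSeq holds 46 protein-coding genes with names of this form, and all 46 are members. Paralogs such as RPL39L were not in the list.

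The cells were HAP1, an established near-haploid human line derived from the leukaemia line KBM-7, of wild-type genotype and grown in IMEM medium. Of 4 groups with 3 biological replicates each, 1 was untreated, 1 was given 4-thiouridine (4SU) at 5 uM for 18 h, 1 received 6 kJ of long-wave ultraviolet light (UVA) per square metre, and 1 received both (4SU+UVA), with a recovery of 30 min between light and harvest. 4SU is a uridine analogue that is built into new RNA and, when UVA excites it, can bond to a protein that touches it, so the combined group is the one meant to carry RNA-protein crosslinks. In ribosome profiling the stretches of mRNA covered by ribosomes are protected from RNase I and counted per gene. No transgene or deletion was involved, and all cells came from 1 line. The cell line label was not checked against marker genes here.

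The large subunit joins amino acids in the peptidyl transferase centre, a site made of ribosomal RNA, and passes the growing chain through an exit tunnel. Its proteins fold and brace that RNA, line the tunnel, carry the stalks, hold the particle of 5S RNA and touch the small subunit through bridges. Most are needed in equal numbers, and their mRNAs are known for a run of pyrimidines at the very 5′ end (a terminal oligopyrimidine tract, TOP), through which growth signals adjust their translation as a class.

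The start of the mRNA was read from RefSeq for 38 of the 46 genes (GRCh38.p14, 25 bases from 10 before the annotated start of the gene to base 15 of the transcript, sense strand only). A C at the annotated start with at least 4 further C or T bases was found in 28 of the 38 genes, or 73.7%, against 6.24% of 15843 protein-coding genes. A C followed by at least 6 C or T bases, beginning anywhere within 10 bases of that start and read on past the window where it began near its end, was found in 32 of the 38, or 84.2%, against 17.9%. Windows are shown as examples for 4 members whose footprint density rose with 4SU+UVA and for 3 whose density fell. These 7 do not stand for all members. RPL17, which rose, had no such run in its window, and RPL15, which fell, did not meet the stricter definition at any of its entries. Capitals mark the longest C and T run that opens with C. The windows lie at chrX:119791616-119791640 (minus strand) for RPL39, chr12:56116623-56116647 (plus) for RPL41, chr15:69452808-69452832 (plus) for RPLP1, chr17:74203668-74203692 (plus) for RPL38, chr9:133348208-133348232 (plus) for RPL7A, chr15:66504841-66504865 (minus) for RPL4 and chr1:23691796-23691820 (plus) for RPL11.
RPL39: ccgccagCTTCCCTCCTCTTCCTTT
RPL41: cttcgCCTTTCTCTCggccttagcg
RPLP1: ggcgcgagagCCCCTTTCCTCagct
RPL38: aagtctcgttCTTTTTCgtcctttt
RPL7A: attCCCTTTCCTTTCTCTCTCCTCC
RPL4: cgggagtggtaagcaCTTCCTTTTC
RPL11: gctccgCTTTCTCTTCCTgctctcc
RPL39, RPL41, RPLP1, RPL38, RPL7A and RPL11 met the stricter definition, and in RPL4 the run opened 5 bases into the annotated transcript. These are matches of letters at annotated starts, and the starts used in HAP1 cells were not measured.

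Values are RPKM, reads scaled to the length of the transcript and to the total of the library, so they compare density relative to each library's own total. Library totals were 1899854 to 5832366 reads, with the smallest in 4SU+UVA replicate 2. Only footprints were used, so a change in the amount of an mRNA and a change in the ribosomes on each copy cannot be told apart, nor can fewer cells and less RNA per cell. Of all genes, 11510 had at least 1 RPKM in at least 3 libraries and were tested with limma on log2(RPKM + 0.5). A log2 change below is a difference of group means on that scale, which understates the change of genes near 0, and an adjusted p is the Benjamini-Hochberg value over all 11510 genes, called at 0.05. The transcripts deposited for the members were short (median 859 nt; 2601 nt over all genes with a read).

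Together the 46 genes took 2.06% ± 0.0373 of all reads in untreated cells, 2.16% ± 0.0664 after 4SU, 1.93% ± 0.0874 after UVA and 2.40% ± 0.0808 after both (SD, n = 3 each). The 3 libraries with 4SU+UVA, at 2.31% to 2.46%, lay above every other library, the highest of which reached 2.21%. The median over the genes of the group mean was 294 RPKM in untreated cells, 315 RPKM after 4SU, 279 RPKM after UVA and 381 RPKM after both.

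**Figure D1:**
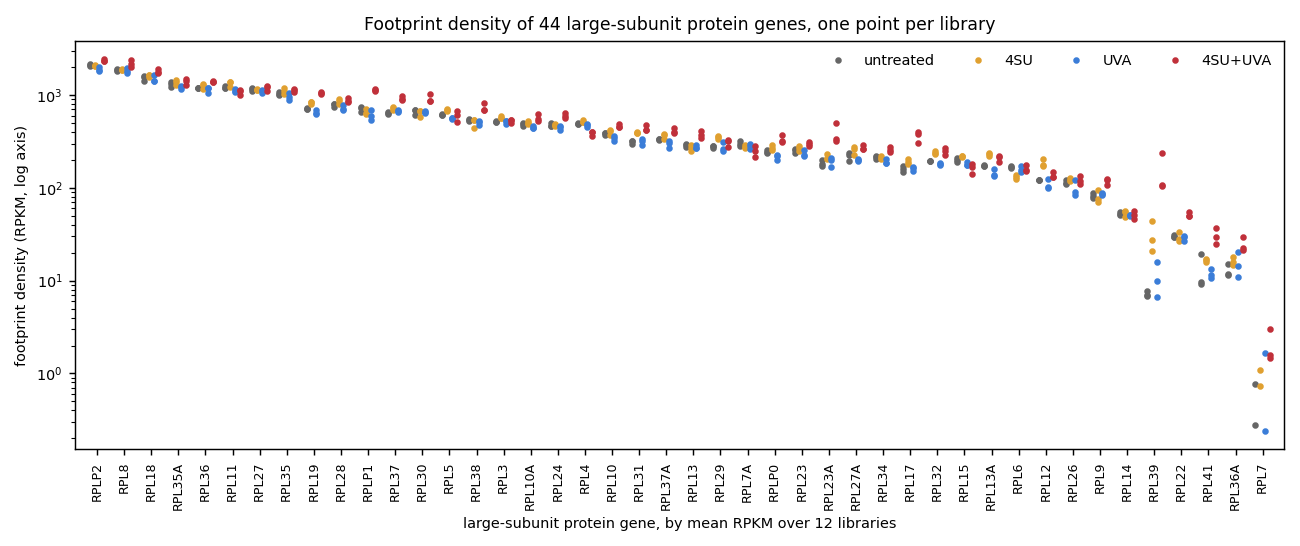
Footprint density (RPKM, log axis) of 44 genes, ordered by mean level, with 1 point per library and a colour for each of the 4 groups. Values of 0 (RPL21 throughout and some libraries of RPL7) cannot be drawn on this axis. Most genes lie between 100 and 1000 RPKM, and the order is much the same in every group.

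The genes differed far more among themselves than between conditions. RPLP2, a protein of the acidic stalk, was the most densely covered, at 2124, 2184 and 2065 RPKM in the 3 untreated libraries, 2108, 2082 and 2048 after 4SU, 1848, 1811 and 1994 after UVA and 2428, 2310.3 and 2302 after both. RPL8, a core protein beside the peptidyl transferase centre, followed at 1826, 1877 and 1922, 1912, 1847 and 1839, 1799.6, 1718 and 1964 and 2361, 1997 and 2151 in the same order. RPL18 was the third, at 1426, 1599.6 and 1567, 1626, 1637 and 1579, 1422, 1434 and 1628 and 1904, 1777 and 1745. For all 3 genes the 4SU+UVA libraries were the highest. In untreated cells 8 genes had a mean of at least 1000 RPKM, 29 lay from 100 to 1000, 6 from 10 to 100 and 3 below 10. Along the untreated order, 22 of the 45 pairs of neighbours had libraries that did not overlap and 23 pairs did overlap. The top of the order, from RPLP2 to RPL8, RPL18 and RPL35A, was clear of overlap, whereas RPL35A, RPL11 and RPL36 could not be ordered beyond their spread. Between groups the order of the 46 genes correlated at Spearman's rho of 0.971 to 0.998 (a description over 46 genes). Levels also depend on the transcript deposited for each gene: RPL14, given 7072 nt, ranked 39th by RPKM but 22nd by reads, and RPL37A, given 2992 nt, ranked 22nd and 5th.

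At the low end, RPL21 was listed at 0 in every library, and RPL7 averaged 0.899 RPKM on about 4.33 reads per library. RPL7 had 0, 0.768 and 0.278 RPKM in untreated cells, 0, 0.729 and 1.08 after 4SU, 0.242, 1.64 and 0 after UVA and 1.47, 2.99 and 1.60 after both. It passed the filter on low values through the 4SU+UVA libraries, the only group in which all 3 reached 1 RPKM, so it had to differ, and its 52 reads in all allow little more than that statement. Both genes have many annotated pseudogenes (137 for RPL21 and 61 for RPL7), and reads that match several copies may be counted elsewhere or not at all. RefSeq lists at least 5 pseudogenes for each of the 46 genes, with a median of 19.5. The 9 members with at least 40, among them RPL39, RPL17, RPL23A, RPL31, RPL36A, RPL12 and RPL7A, had a median level of 138 RPKM, against 468 RPKM for the other 37. Their levels and changes are therefore uncertain, and the part of the copies in them was not tested. RPL17 and RPL36A also lie inside annotated read-through genes, RPL17-C18orf32 and RPL36A-HNRNPH2, as 2 of 13 members that overlap another protein-coding gene.

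The main question of the design was what 4SU+UVA does relative to untreated cells. Of the 45 members tested, 30 rose, 4 fell and 11 were not called, where the same test called 40.6% of all genes higher and 18.4% lower. The largest rises were those of RPL39, the exit tunnel protein, then RPL41, RPL17 and RPL23A, all at least 2-fold, and the falls were those of RPL4, RPL15, RPL7A and RPL11. The counts hold RPL7, whose direction here was fixed by the filter on low values, and without it 29 of 44 members rose and 4 fell. The median member changed by 0.25 on the log2 scale and the median of all genes tested by 0.23. Among 539 other genes that are also short (up to 1500 nt) and densely covered (at least 100 RPKM), a class chosen after the values had been seen, 61.4% rose, 12.4% fell and the median change was 0.27. The groups' libraries did not overlap at 31 members that were higher, RPL7 again among them, and 4 that were lower, against 43.6% and 20.2% of all genes. So the typical member moved about as much as the typical gene. The lower and upper quartiles of the change were 0.10 and 0.49 for members and -0.15 and 0.57 for all genes tested.

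Because most genes shifted upward under the deposited scaling, each direction was read against other scalings. With every library centred on its median gene, 18 members were higher and 8 lower, against 27% and 25.1% of all genes, and after quantile normalisation 21 and 5, against 26.2% and 25.3%. Called higher under the deposited scaling, both of these and a scaling to the reads of genes outside the set were 17 members, RPL9, RPL13, RPL17, RPL19, RPL22, RPL23A, RPL24, RPL30, RPL31, RPL32, RPL36A, RPL37, RPL38, RPL39, RPL41, RPLP0 and RPLP1. The 4 falls of RPL4, RPL7A, RPL11 and RPL15 were also called under all of them. Of all genes, 22.1% were called higher and 18.3% lower under all 4. By contrast, among members called before or after the rescaling, RPL27, RPL28, RPL36 and RPLP2 turned from above to below 0 after quantile normalisation. After centring RPLP2 and RPL3 did. Members called in neither also reached below 0 in an alternative, among them RPL26 (lowest -0.10), RPL35 (-0.059) and RPL35A (-0.11).

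**Figure D2:**
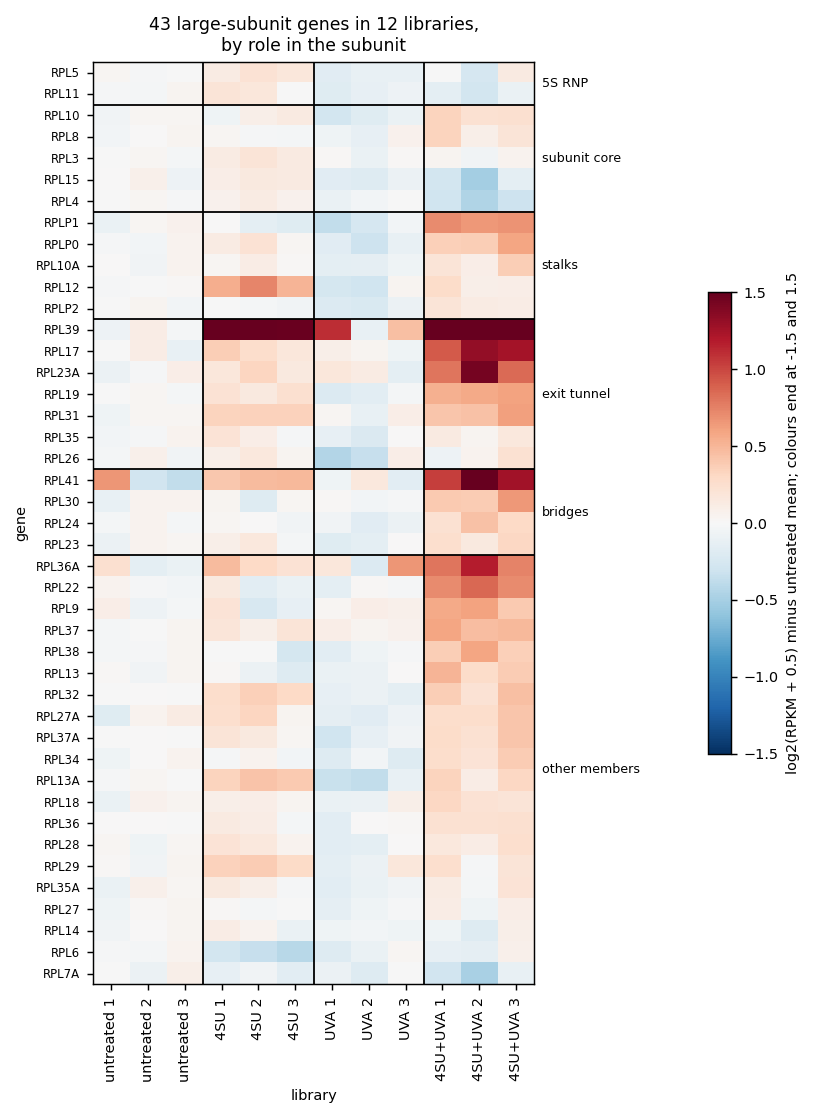
Difference of log2(RPKM + 0.5) from the untreated mean (colour) for 43 members (rows, grouped by role; RPL7 and RPL21 left out for too few reads) in each of the 12 libraries (columns). The 4SU+UVA columns are red for most stalk, exit tunnel and bridge genes and blue for RPL4, RPL15, RPL11 and RPL7A. RPL39 is beyond the scale in the 4SU+UVA libraries and at or beyond its end in the 4SU libraries.

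The 7 proteins of the exit tunnel and its mouth had the highest median of the role groups, 0.57 on the log2 scale. Of them 5 rose and none fell, where 40.6% of all genes rose and 18.4% fell. The role groups were set with earlier results of these data known, so their order is a description only. Of the 7, RPL39, RPL17, RPL23A and RPL31 have at least 40 annotated pseudogenes each, whereas RPL19, RPL26 and RPL35 have fewer. That class had a median change of 0.91 without RPL7, and whether role or pseudogenes went with the higher median was not tested. RPL4, which also reaches into the tunnel, was placed with the core when earlier results were known; with it the tunnel group would hold 8 proteins, 5 that rose and 1 that fell, with a median of 0.53. RPL39 (ENSG00000198918), a very small protein buried in the tunnel wall, whose gene lies at chrX:119786504-119791630 (GRCh38.p14) with a deposited transcript of 390 nt, had 6.77, 7.77 and 7.03 RPKM in untreated cells, 43.7, 27.7 and 21.0 after 4SU, 16.0, 6.62 and 10.004 after UVA and 103, 235 and 109 after both. Every 4SU library exceeded every untreated and UVA library, and every 4SU+UVA library exceeded all others. Its mean went from 7.19 ± 0.518 to 149 ± 74.4 RPKM (SD, n = 3). On the scale of log2(RPKM + 0.5) the change was 4.17 (SE 0.32, adjusted p = 1.3e-07), the third highest of the 11510 genes. That equals 18.1-fold on this scale, which is not the ratio of the RPKM means. The depth behind it was small, 42 untreated reads and 526 reads with 4SU+UVA. The highest value came from the shallowest library, without which the log2 change was 3.79 (adjusted p = 5.9e-07). The gene has 40 annotated pseudogenes and the paralog RPL39L.

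RPL17 (ENSG00000265681), at the mouth of the tunnel, had 159, 173 and 148 RPKM untreated, 206, 192 and 179 after 4SU, 169, 164 and 152 after UVA and 302, 399.5 and 381 after both. Its log2 change was 1.17 (SE 0.09, adjusted p = 2e-07), and 1.09 without the shallowest library. RPL23A (ENSG00000198242), where the nascent chain leaves and the signal recognition particle docks, had 174, 182 and 197 RPKM untreated, 208, 231 and 204 after 4SU, 208, 201 and 166 after UVA and 322, 498 and 332 after both. It changed by 1.03 (SE 0.13, adjusted p = 1.6e-05), and by 0.83 without that library, which gave the value of 498. For both genes the 4SU+UVA libraries stood above all 9 others.

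RPL19 had 714, 731 and 702 RPKM untreated, 835, 795 and 848 after 4SU, 622, 642 and 698 after UVA and 1032, 1063 and 1089.5 after both. This was a rise of 0.57 (SE 0.05) with the 4SU libraries in between and no overlap among untreated, 4SU and 4SU+UVA libraries. RPL31, also at the mouth, had 299, 318 and 319, 394, 395 and 395, 318, 289 and 334 and 415, 421 and 478 RPKM in the same order of groups, and rose by 0.49 (SE 0.06). Here the 4SU libraries already lay near the level of the combined group. The remaining members of the group did not pass: RPL26 had 113, 121 and 111, 122, 128 and 118, 84.7, 90.3 and 123 and 109, 119 and 134 RPKM (log2 change 0.07), with overlapping groups. RPL35, at the site where factors that act on nascent chains dock, had 1012, 1026 and 1083, 1196, 1111 and 1027, 957, 894 and 1045 and 1139, 1070.2 and 1163 RPKM (log2 change 0.11), again with overlap between untreated and 4SU+UVA libraries.

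**Figure D3:**
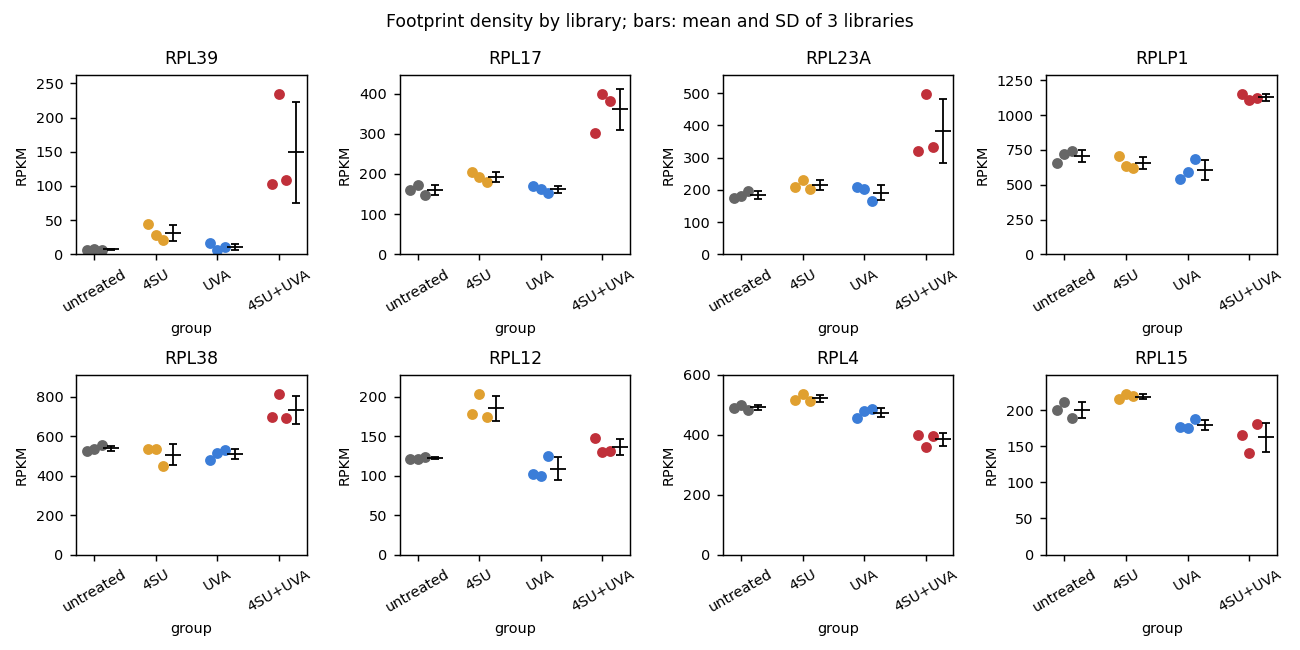
Footprint density (RPKM, linear axes from 0) of 8 members in every library, with the mean and SD of 3 libraries beside the points of each group. RPL39, RPL17, RPL23A, RPLP1 and RPL38 are highest in 4SU+UVA, RPL12 is highest with 4SU alone, and RPL4 and RPL15 are lowest in 4SU+UVA.

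The acidic stalk recruits and activates the GTPases of elongation. Of the 5 members placed with either stalk, 4 rose with 4SU+UVA and none fell, where 40.6% of all genes rose and 18.4% fell. RPLP1 (ENSG00000137818), which pairs with RPLP2 on the acidic stalk, had 657, 723 and 739 RPKM untreated, 707, 637 and 621 after 4SU, 544, 592 and 684 after UVA and 1153, 1106 and 1121 after both, a log2 change of 0.68 (SE 0.08, adjusted p = 4.5e-06). RPLP0, the base of that stalk, had 244, 240.1 and 257, 269, 287 and 253, 219.8, 199 and 228 and 316, 319 and 372 RPKM and rose by 0.44 (SE 0.07). For both, every 4SU+UVA library lay above the other 9. RPL10A, of the other stalk, rose less, by 0.22 (SE 0.06), from 486, 466 and 504 to 554, 519 and 626 RPKM, with 497, 525 and 492 in the 4SU and 438, 442 and 465 in the UVA libraries. RPLP2 changed by 0.14 (SE 0.05) with the deposited scaling and by -0.027 and -0.045 with median centring and quantile normalisation. RPL12 (ENSG00000197958), which anchors the acidic stalk beside RPLP0, was not called here at 0.16 (adjusted p = 0.13), although its libraries did not overlap.

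All 4 members placed with the bridges rose, where 40.6% of all genes did. Each member was placed in only 1 role group, so others may also touch the small subunit. RPL41 (ENSG00000229117), the smallest protein of the ribosome, had 19.2, 9.69 and 9.14 RPKM untreated, 16.0, 16.8 and 17.0 after 4SU, 11.4, 13.4 and 10.6 after UVA and 25.1, 37.0 and 29.4 after both. The 4SU+UVA libraries were the highest, with 1 untreated library above the 4SU group, and the change was 1.30 (SE 0.21, adjusted p = 0.00013) on 83 untreated and 140 4SU+UVA reads. RPL30 rose by 0.47 (SE 0.08), RPL24 by 0.32 (SE 0.06) and RPL23 by 0.24 (SE 0.07); RPL23 kept its direction but was not called with median centring (0.07) or quantile normalisation (0.16).

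Among the 23 members with other or less specific places, 15 rose, RPL7 among them, 1 fell and 6 of the 22 tested were not called. RPL36A, which contacts tRNA leaving the ribosome, had 15.1, 11.4 and 11.9 RPKM untreated, 17.9, 15.8 and 14.8 after 4SU, 14.4, 10.9 and 20.5 after UVA and 22.5, 29.5 and 21.7 after both. Its 4SU+UVA libraries lay above all others, at a change of 0.91 (SE 0.18, adjusted p = 0.00075). RPL22, of known extra roles in lymphocytes, rose by 0.76 (SE 0.09). RPL9 rose by 0.52 (SE 0.10), RPL37 by 0.51 (SE 0.05), RPL38 by 0.44 (SE 0.08) and RPL13 by 0.39 (SE 0.07). RPL38, a protein known for its part in the translation of patterning genes, was highest in the shallowest library and changed by 0.36 without it.

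The falls were in the subunit core, the 5S particle and RPL7A. Of the 5 core members, RPL8 and RPL10 rose, RPL4 and RPL15 fell and RPL3 was not called. RPL4 (ENSG00000174444), whose long loop reaches into the tunnel, had 489, 501 and 485 RPKM untreated, 515, 536 and 514 after 4SU, 457, 479 and 488 after UVA and 399.9, 359 and 396 after both. All 3 libraries of the combined group were below the other 9, and the fall was -0.35 (SE 0.05, adjusted p = 5.1e-05). RPL15 had 200.4, 211 and 189, 215, 222 and 219, 177, 175 and 188 and 166, 141 and 180.2 RPKM and changed by -0.31 (SE 0.08, adjusted p = 0.0034). RPL3, a core protein near the tRNA sites, had 516, 529.5 and 509.9, 566, 594 and 569, 524, 483 and 524 and 534, 502 and 539 RPKM, a change of 0.02 with overlapping groups. RPL7A had 299.9, 284 and 321, 277, 289.6 and 270.2, 283, 264 and 299 and 247, 215 and 279.6 RPKM and changed by -0.29 (SE 0.08, adjusted p = 0.0076), with its lowest value in the shallowest library and 80 annotated pseudogenes.

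RPL5 and RPL11 bind 5S RNA and, outside the ribosome, hold MDM2 and so stabilise p53. RPL11 had 1204, 1189.7 and 1249 RPKM untreated, 1392, 1365 and 1212 after 4SU, 1069.5, 1118 and 1156 after UVA and 1098, 1005 and 1136 after both. Its 4SU+UVA libraries were all below the untreated ones but overlapped those with UVA, and the change was -0.17 (SE 0.06, adjusted p = 0.024). RPL5 had 626, 605 and 610.3, 668, 712 and 691, 545, 569 and 569 and 610.4, 515 and 673 RPKM, a change of -0.04, not called, with its lowest value in the shallowest library.

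Several of these calls rest on single libraries. RPL11 lost its call without 4SU+UVA replicate 2 (adjusted p = 0.1) or untreated replicate 3 (0.086), RPL7 without 4SU+UVA replicate 2 (0.07) or untreated replicate 1 (0.072), RPL28 without untreated replicate 2 (0.094) or 4SU+UVA replicate 3 (0.097), RPL10A without 4SU+UVA replicate 3 (0.051) and RPLP2 without untreated replicate 3 (0.068). The other 26 rises and 3 falls were called whichever library was left out.

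4SU alone changed few members. Of the 45 tested, 8 rose and 1 fell, where 11.3% of all genes rose and 3.12% fell, and the median change was 0.10 for members and 0.09 for all genes tested. The libraries did not overlap at 17 members that were higher and 1 that was lower, against 25.1% and 10.1% of all genes. RPL39 rose 3.89-fold, or 1.96 (SE 0.32, adjusted p = 0.002) on the log2 scale, which was the largest rise of the 11510 genes with 4SU alone. RPL12 went from 122 ± 1.17 to 185 ± 15.7 RPKM (SD, n = 3), from 121, 121 and 123 to 178, 203 and 174 by library, a change of 0.60 (SE 0.09, adjusted p = 0.0013). RPL13A, known for silencing of inflammatory mRNAs once released from the ribosome, went from 173, 178 and 174 to 221, 236 and 229 RPKM, a change of 0.39 (SE 0.07). The 4SU libraries of both genes lay well clear of the untreated ones.

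The other rises with 4SU were those of RPL29 (0.34), RPL31 (0.34), RPL32 (0.31), RPL19 (0.21) and RPL37 (0.15). RPL6 alone fell, from 166, 164 and 173 to 139, 132 and 126 RPKM, a change of -0.34 (SE 0.07, adjusted p = 0.0073) without overlap. Of the 8 rises, RPL12, RPL13A, RPL31 and RPL39 were called under all 4 scalings, as was the fall of RPL6, against 4.53% and 2.88% of all genes. Centring on the median left 4 rises and 2 falls, where the shares of all genes became 5.56% higher and 9.38% lower. Without 4SU replicate 1 there were 5 rises: RPL19 (adjusted p = 0.059), RPL29 (0.051) and RPL37 (0.14) lost their calls. The rise of RPL37 was called in 7 of the 23 alternatives run and was lost with median centring (0.78) and in 10 of the 12 sets that left out a library. RPL41 had the third highest change, 0.46 (adjusted p = 0.16), with libraries that overlapped, and was not called. At the lower end RPL7A (-0.11) and RPLP1 (-0.11) came after RPL6 and were not called. Among the 539 short, densely covered genes 54 rose and 34 fell, with a median of 0.02.

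UVA alone changed none of the members by the limma test, where 0.278% of all genes were called higher and 0.374% lower. At an unadjusted p under 0.05 there were 9 members, and limma-voom on recovered reads called 0, with 9 at that unadjusted level. The median change was -0.09 for members and 0.05 for all genes tested, and 8 of the 45 members were above 0. Among the 539 short, densely covered genes 0 rose and 37 fell, with a median of 0.03. The libraries did not overlap at 13 members that were lower and at 0 that were higher, against 3.93% and 12.8% of all genes. The lowest change was that of RPL13A, from 173, 178 and 174 to 138, 136 and 162 RPKM at -0.27 (SE 0.07, adjusted p = 0.18), which was called without UVA replicate 3 (-0.35, adjusted p = 0.037). RPL26 (-0.23) and RPLP1 (-0.22) followed, each with overlapping libraries. At the upper end RPL39 had 0.48 (adjusted p = 0.76), RPL7 0.23 and RPL36A 0.21, all with overlap. RPLP2 was lower in all 3 UVA libraries than in any untreated one and changed by -0.17 (SE 0.05), and of the alternatives run only median centring gave a call (adjusted p = 0.027).

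In cells that carried 4SU, light changed many members. Between 4SU+UVA and 4SU alone 23 members rose, 6 fell and 16 were not called, where 25% of all genes rose and 19% fell, with a median of 0.17 for members and 0.09 for all genes tested. Among the 539 short, densely covered genes 55.7% rose and 11.3% fell, with a median of 0.24, as against 51.1% and 13.3% of the members. The libraries did not overlap at 25 members that were higher and 8 that were lower, against 29.6% and 21.4% of all genes. The 25 include RPL7, which passed the filter on low values through the 4SU+UVA libraries. RPL39 rose again by 2.21 (SE 0.32, adjusted p = 8e-05), followed by RPL17 (0.90 (SE 0.09)), RPL41 (0.84 (SE 0.21)) and RPL23A (0.81 (SE 0.13)); RPL7, at 1.30, was not called. The falls were in RPL12 (-0.44), RPL4 (-0.44), RPL15 (-0.44), RPL11 (-0.29), RPL5 (-0.21) and RPL3 (-0.13). Both proteins of the 5S particle and 3 of the 5 core proteins were thus called lower than with 4SU alone by the test as run. The calls of RPL5 and RPL3 rest on single libraries, since without 4SU+UVA replicate 2 both had an adjusted p of 0.13. That of RPL3 held in only 11 of the 23 alternatives run. It was also lost without untreated replicate 1, 2 or 3 (adjusted p = 0.056, 0.056 and 0.057), which are not part of this comparison. Quantile normalisation raised the falls to 11, with 20.5% of all genes higher and 22.6% lower. Among members called before or after it, this scaling turned RPL8, RPL18, RPL27, RPL28, RPL35 and RPLP2 to below 0. On the rising side RPL10, RPL18, RPL36, RPL36A and RPL37A lost their calls without 1 or another library, with adjusted p up to 0.18.

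RPL12 was raised by 4SU and lower once light was added, at 178, 203 and 174 RPKM with 4SU and 148, 129.7 and 131 with 4SU+UVA, with no overlap between these groups. RPL6 did the opposite, falling with 4SU and rising from 139, 132 and 126 to 154, 152 and 176 RPKM, a change of 0.28 (SE 0.07, adjusted p = 0.006). RPL13A, RPL29, RPL31 and RPL32 rose with 4SU and were not called for the added light, while RPL19 and RPL39 rose in both steps, as did RPL37 by the test as run. These comparisons share the 4SU libraries.

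Among irradiated cells the 4SU+UVA libraries were compared with UVA alone, and 34 members rose, 1 fell and 10 were not called, where 34.7% of all genes rose and 19.8% fell. The median was 0.42 for members, 0.18 for all genes tested and 0.24 for the 539 short, densely covered genes, of which 58.6% rose and 12.4% fell. Without RPL7, which passed the filter on low values through the 4SU+UVA libraries, 33 of 44 members rose. The libraries did not overlap at 32 members that were higher and 1 that was lower, against 37.9% and 21.5% of all genes. All 7 members placed with the exit tunnel, all 5 with the stalks and all 4 with the bridges rose. RPL39 rose by 3.69 (SE 0.32, adjusted p = 4.2e-07), RPL41 by 1.32 (SE 0.21) and RPL12 by 0.33 (SE 0.09). RPL4 alone fell, by 0.30 on the log2 scale (SE 0.05), while RPL7A (-0.20) and RPL15 (-0.16) were not called. In all, 25 rises and the fall of RPL4 were called under all 4 scalings, against 21.7% and 19.2% of all genes. Among members called before or after quantile normalisation, RPL8, RPL18, RPL27, RPL35A and RPLP2 turned to below 0 with it. RPL8 was then called lower (-0.16, adjusted p = 0.0023). The rises of RPL7, RPL26, RPL35 and RPL35A were lost without 1 or another library, with adjusted p up to 0.18, and the falls numbered 2 without UVA replicate 2 and 3 without 4SU+UVA replicate 3.

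Whether light acted differently in cells with 4SU was tested as the interaction, the UVA change with 4SU minus the UVA change without it. It was above 0 in 21 members and below 0 in 1, with 23 not called, where 10.7% of all genes were above 0 and 14.1% below. The median was 0.27 for members, 0.02 for all genes tested and 0.20 for the 539 short, densely covered genes, of which 39.5% were called above 0 and 6.68% below. RPL39 had 1.73 (SE 0.46, adjusted p = 0.013), RPLP1 1.01 (SE 0.11, adjusted p = 1.6e-05) and RPL17 0.88 (SE 0.13, adjusted p = 0.00029). In 17 of the 21 neither agent alone was called, a pattern of 9.24% of all genes. Of these, RPLP1 changed by -0.11 with 4SU, -0.22 with UVA and 0.68 with both, and RPL22 by -0.04, -0.05 and 0.76. RPL4 was the member below 0, at -0.39 (SE 0.07, adjusted p = 0.0015), while RPL15 (-0.28) and RPL12 (-0.27) were not called. By role group, 4 of 5 members placed with the stalks, 4 of 7 with the exit tunnel and 3 of 4 with the bridges were above 0. Neither of the 5S particle was called.

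Of the 21, RPL6, RPL9, RPL10, RPL13, RPL17, RPL19, RPL22, RPL23A, RPL24, RPL34, RPL38, RPL39, RPL41, RPLP0 and RPLP1 were called under all 4 scalings, as was RPL4, against 9.25% of all genes above 0 and 12% below. Among members called before or after quantile normalisation, RPL8, RPL18 and RPLP2 turned below 0 with it. RPL8 was then called in the opposite direction (-0.23, adjusted p = 0.0053). The calls of RPL8, RPL10A and RPL41 were lost in 7 to 9 of the 12 sets that left out a library, and that of RPL37A in 1 (UVA replicate 1, adjusted p = 0.05). The members below 0 numbered 2 without 4SU replicate 3 or without 4SU+UVA replicate 3.

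**Figure D4:**
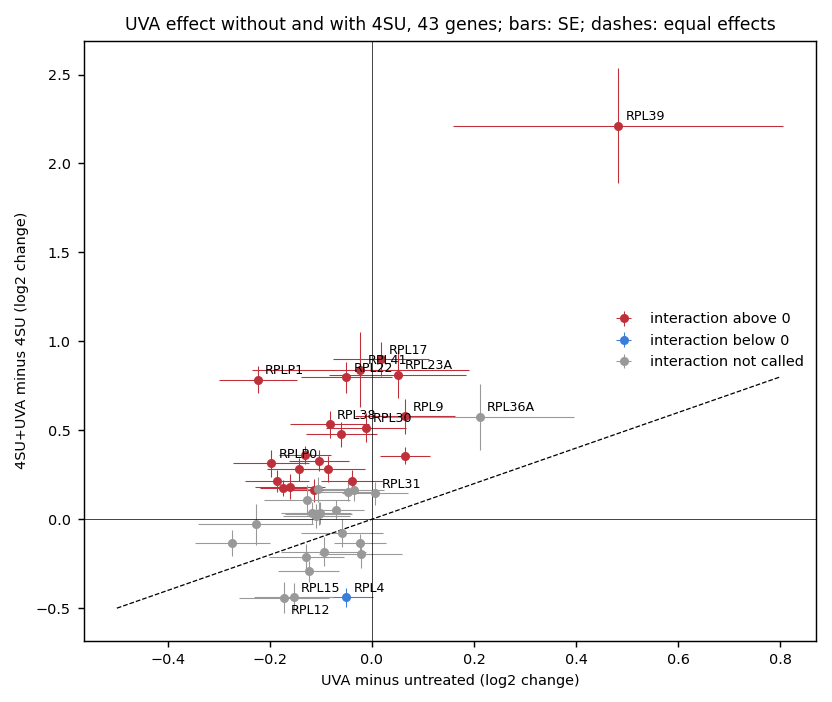
Log2 change with UVA in cells without 4SU (horizontal) against that in cells with 4SU (vertical) for 43 members, with SE bars, a dashed line of equal changes and colours for the interaction call. Most members lie left of 0 and above the line, RPL39 lies far above it and RPL4 below it.

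The members' changes were compared with features that were not used to choose them. Among these, mean RPKM over the 12 libraries includes the libraries that give the change, so it is not independent of the change. Across the 45 tested members, which share libraries, the change with 4SU+UVA against untreated cells had Spearman's rho of -0.083 with log2 transcript length, -0.282 with log2 mean RPKM and 0.27 with the number of annotated pseudogenes. The 8 tested members with at least 40 pseudogenes included 6 that rose and 1 that fell, with a median change of 0.97. They include RPL7, whose direction was fixed by the filter on low values. Without it 5 of 7 rose and 1 fell, with a median of 0.91. The other 37 included 24 that rose and 3 that fell, with a median of 0.24. Of the 27 tested members with the stricter pyrimidine run at a RefSeq start, 19 rose and 2 fell, with a median of 0.27. Of the 10 with an entry but no such run, 5 rose and 2 fell, with a median of 0.13, and of the 8 with no entry 6 rose and 0 fell, with a median of 0.36. The rises in this last class include RPL7, whose direction was fixed by the filter. Of all tested members 66.7% rose and 8.89% fell, and of all genes 40.6% and 18.4%. Whether these classes differ was not tested. The UVA changes with and without 4SU, which share no library, had rho of 0.455 across 45 members and 0.417 without RPL39. RPL14 and RPL27 were called in none of the 6 contrasts, and 22 members were higher in 4SU+UVA than in each of the other groups, of which 19 were also above 0 in the interaction, against 20.1% and 9.4% of all genes.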

How the data were processed

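Ribosome footprints were sequenced from 12 HAP1 libraries, grouped by the treatment in their labels. Per the labels' protocols, lysates with cycloheximide were treated with RNase I, and ribosomes were spun through sucrose before footprints of 15 to 70 nt were cloned and amplified by PCR. Per the submitters' processing notes, STAR 2.7.10a and hg38 were used; the sources used here do not say how reads were counted or what became of those that match several places.

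The authors deposited 1 table of RPKM values per gene, with no counts. Library totals (1899854 to 5832366), transcript lengths and reads were recovered from the steps of these values, tested on simulated data; 100% of values came out whole within 0.001 reads, which the search for lengths favours. PCR reads are not independent molecules.

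Limma 3.58.1 in R 4.3.3 (lmFit, eBayes with a variance trend) was fitted to log2(RPKM + 0.5) of 11510 genes (1 RPKM or more in 3 or more libraries), with 4 group means and 8 residual degrees of freedom, two-sided, adjusted over all genes. P-values measure the spread between these replicates. Replicates of a group correlated at r of 0.982 to 0.991 on the log scale, and each pair differed beyond counting error (chi-square of 1.70 to 5.55 per gene).

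The members, roles and lists were chosen with earlier results of these data known. One member is counted in the totals but not reported by name or drawn; the others could be named; values in every library were given for the 3 highest and lowest by level and in each contrast, for the 5S, stalk and exit tunnel groups, and for members called against the direction of most. Lists of small-subunit and mitochondrial ribosomal proteins, other TOP mRNAs, assembly factors, paralogs and cell type markers could not be matched, since 0 genes of the symbol table carry an Ensembl identifier, and were not tested. Sequences and coordinates are RefSeq's (GRCh38.p14).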

Additional observations from a re-analysis of the deposited data

Results flagged for a closer look

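The test of the interaction singled out members whose change with UVA differed between cells with and without 4SU. By the limma test 21 members lay above the sum of both single effects and 1 below it, where 10.7% of all genes were above and 14.1% below. Among the 539 short, densely covered genes, 39.5% were called above and 6.68% below. The highest log2 values were 1.73 for RPL39, 1.01 for RPLP1 and 0.88 for RPL17, and RPL4 was the member below, at -0.39. No group had enough libraries for a test of single outlying samples.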

How the results depend on the processing

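Counts of called members depended mostly on scaling, and the cause was not tested. With median centring, 4SU+UVA against untreated gave 18 higher and 8 lower, against 27% and 25.1% of all genes. For 4SU against untreated it gave 4 and 2, against 5.56% and 9.38%. UVA against untreated had 1 lower and 4SU+UVA against UVA 3 lower, where 48 and 2683 of all 11510 genes were lower. Quantile normalisation gave 11 lower for 4SU+UVA against 4SU, where 22.6% of all genes were lower. It gave 5 lower against UVA and 5 below 0 in the interaction, where 2820 and 1648 of all 11510 genes were. Without the variance trend 5 members were higher with 4SU, as were 1077 of all 11510 genes. A filter on a mean of at least 5 RPKM gave 2 lower for 4SU+UVA against UVA, where 2139 of 8131 genes were lower. Replicate numbers did not pair the libraries (r of -0.0457 to 0.0679 between deviations of 18 same-numbered pairs, 0 over 0.1). With the replicate block, 4SU+UVA against UVA had 2 lower members, where 2262 of all 11510 genes were lower. The other counts with the block stayed within 1.5 times. Leaving out 1 library gave, higher and lower, 28 to 31 and 3 to 4 for 4SU+UVA against untreated, 5 to 10 and 1 for 4SU, 0 and 0 to 1 for UVA, 20 to 24 and 4 to 8 against 4SU, 31 to 35 and 1 to 3 against UVA, and 17 to 23 and 1 to 2 in the interaction.

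The median member's change with 4SU alone turned to -0.028 with median centring. The members named next were called before or after the rescaling. Sign changes of members called in neither are left out. For 4SU+UVA against untreated, centring turned RPL3 to -0.15 and RPLP2 to -0.027, and quantile normalisation turned RPL27 to -0.14, RPL28 to -0.057, RPL36 to -0.0072 and RPLP2 to -0.045. Quantile normalisation also turned RPL8 (-0.061), RPL18 (-0.047), RPL27 (-0.11), RPL28 (-0.19), RPL35 (-0.16) and RPLP2 (-0.072) against 4SU, RPL8 (-0.16), RPL18 (-0.037), RPL27 (-0.12), RPL35A (-0.076) and RPLP2 (-0.078) against UVA, and RPL8 (-0.23), RPL18 (-0.18) and RPLP2 (-0.11) in the interaction.

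Limma-voom on recovered reads, the scaling to reads of genes outside the set, the counts without RPL7 and the placing of RPL4 with the exit tunnel were chosen after seeing the data; the first 3 moved no count by over 1.5 times. The planned count models were not run because the deposited unit is RPKM. Depth limits RPL7 (52 reads), RPL41, RPL39 and RPL36A most.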
